A study of Mus musculus with 36 samples.

Results

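Gene expression was compared between shCD36 and non-targeting tumours in the SCC25 experiment on the control diet, in cells of the tumour stroma that the labels call the neural fraction. SCC25 is an established human oral carcinoma line. Its cells carried either a short hairpin RNA against CD36 (shCD36) or the non-targeting hairpin (PLKO), and grew as orthotopic xenografts in NOD-SCIDγ (NSG) mice, which lack mature lymphocytes. The comparison took the 3 arrays titled shCD36 and the 3 arrays titled PLKO of this line and diet, 6 of the 36 arrays in the series, chosen by their titles. Both sides share the host strain, the cell line, the diet, the hybridisation batch and the scan batch. Each side is 1 labelled biological replicate, and its 3 arrays carry 1 technical replicate label. The labels do not say how many mice or RNA extracts stand behind them, or how old the mice were. Tests on these arrays measure the spread between arrays that share 1 biological replicate label. Whether that holds any spread between tumours is not known, so they cannot be read as tests against it. The same contrast was read in the SCC25 tumours of mice on the palmitate-rich diet and in the control diet arm of the second experiment with the oral carcinoma line VDH15, each with 3 arrays and 1 biological replicate a side and no array in common with the comparison. All SCC25 arrays were in 1 hybridisation batch and 1 scan batch. The VDH15 arrays were in others, so that cell line and batch cannot be told apart there.

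CD36 is a membrane protein that binds and takes up long-chain fatty acids and also serves as a receptor for thrombospondin. The hairpin was carried by the human tumour cells, whereas the arrays hold probes for mouse transcripts. Whether human transcripts also bound these probes was not tested. Tumour stroma is built of fibroblasts, which lay down collagens and other matrix, of endothelial cells and mural cells, which form vessels, of nerves with their Schwann cells, and of leukocytes, and bordering mouse epithelium can be carried along when tissue is taken. Type I interferon acts through a receptor and transcription factors that bind interferon-stimulated response elements in the promoters of antiviral genes. Squamous epithelium, when it matures, makes small proline-rich proteins, late cornified envelope proteins and keratins such as Krt10 that form its tough outer layer.

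Expression values were log2 intensities. Arrays of the same group correlated with r between 0.9926 and 0.9952 across the 12823 genes tested, and arrays of different groups with r between 0.9833 and 0.9868. No pair of arrays held identical values. On a principal component analysis of the 12 SCC25 arrays, the first component held 51.8% of the variance and placed the non-targeting control diet arrays at -21.7 to -20, the shCD36 control diet arrays at -4.34 to -2.03 and the non-targeting palmitate arrays at 26 to 29.9. The shCD36 palmitate arrays lay at -5.67 to -1.58, beside the shCD36 arrays of the control diet. The second component, with 12.4% of the variance, placed the shCD36 control diet arrays at -15.6 to -12.4 and the shCD36 palmitate arrays at 6.52 to 10.9. Array 2 of the shCD36 group stood apart: 11 genes were at least 2 log2 above both other arrays of its group there, against 0 on each of the other 5 arrays of the comparison. They are described with the epithelial genes, and the counts of the gene lists that lead a result below are also given without this array.

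The label was checked against marker genes of the nervous tissue. Of 15 Schwann cell and glial identity genes with a probe set, 10 passed the filter on low values, among them Sox10, the transcription factor of the glial lineage, at 6.80 to 6.91 log2 in the non-targeting group and 6.89 to 7.07 in the shCD36 group, and Erbb3, the neuregulin receptor, at 8.931 to 9.079 and 8.877 to 9.001. S100b, Gfap and Foxd3 were below the filter. Of 17 neuron and synapse genes 8 passed, while Snap25, Syp and all 3 neurofilament genes (Nefl, Nefm and Nefh) were below the filter. Markers of basal keratinocytes passed in 11 of 11 cases, of fibroblasts in 17 of 20 and of endothelial cells in 21 of 22. The filter left out only the lowest 25% of all genes, and 14 of 17 skeletal muscle genes passed as well. Passing therefore does not by itself show that a cell type was present. In the non-targeting group, the members that passed had median levels of 10.81 log2 for basal keratinocytes, 8.22 for fibroblasts and 7.98 for endothelial cells. The medians were 7.38 log2 for glial identity, 6.44 for neurons and synapses and 5.78 for skeletal muscle. In bulk RNA, a change in the number of cells of a type and a change in RNA per cell cannot be told apart.

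With shCD36, 493 of the 12823 genes were higher and 724 lower in the limma test with a Benjamini-Hochberg adjusted p under 0.05. These are 3.84% and 5.65% of the genes tested, 9.49% together, and the median difference over all genes was -0.02 log2. A difference of at least 1 log2 (2-fold) was reached by 105 of these genes (0.819%), 78 of the higher genes (0.608%) and 27 of the lower genes (0.211%). Fewer genes were higher than lower, but more of the higher ones changed at least 2-fold. Among the highest were genes of connective tissue and of acute inflammation, led by Col3a1, Saa3, Ptx3, Tnfaip6, Fstl1 and Col1a1. Among the lowest were epithelial and interferon-induced genes, led by Sprr2d, Sprr2a1, Il33, Ifit1 and Plet1. The spread was also taken between experiments, from 11 group averages with 2 residual degrees of freedom. There 0 genes passed the adjusted threshold and 267 (2.08%) had an unadjusted p under 0.05 in limma, 244 of them among the 1217 calls. Both SCC25 control diet averages were fitted exactly in that fit. Its spread came from palmitate minus control diet in the VDH15 experiments and from shCD36 minus non-targeting on the palmitate diet. No control diet shCD36 difference entered it, so the spread of this contrast between experiments was not measured. Without array 1 of the non-targeting group the calls fell to 770 and without array 3 of the shCD36 group to 808, and without shCD36 array 2 they were 991. Of the 191 called genes that are named here or belong to a gene list, 124 passed whichever single array was left out and 67 lost their call at least once.

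**Figure D1:**
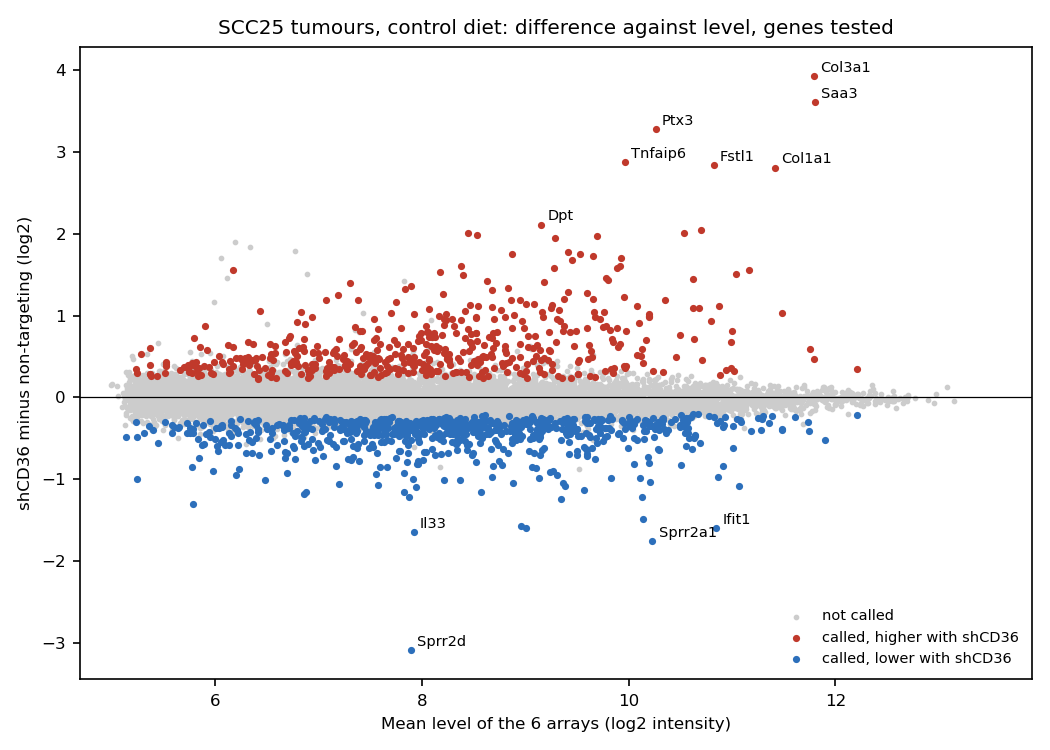
Difference between the shCD36 and non-targeting groups (log2, vertical axis) against the mean level of the 6 arrays (log2 intensity, horizontal axis) for the 12823 genes tested; red and blue points passed the adjusted threshold as higher or lower. Col3a1 at 3.94 and Saa3 at 3.61 lie at the top, and Sprr2d at -3.09 lies alone at the bottom.

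Connective tissue genes were higher with shCD36. Of 20 collagens tested, 13 were higher and 0 lower, 10 of them by at least 1 log2, with a median difference of 0.97 log2; without shCD36 array 2 there were 11 higher and 0 lower. Col3a1, a fibrillar collagen of soft connective tissue, read 9.42, 9.44 and 10.60 log2 on the non-targeting arrays and 13.40, 14.07 and 13.80 on the shCD36 arrays. The groups did not overlap, as was also true of 31.1% of all genes (13.1% with the shCD36 arrays higher and 18% with them lower), and the third non-targeting array was the highest of its group. The difference was 3.94 ± 0.39 log2 (SE), or 15.3-fold (adjusted p = 2.26e-05, limma). A second, lower-reading Col3a1 probe set gave 0.48 log2.

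Col1a1, the main chain of type I collagen, read 9.70, 9.90 and 10.43 log2 in the non-targeting group and 12.30, 13.10 and 13.06 in the shCD36 group. It was higher by 2.81 ± 0.45 log2 (adjusted p = 0.0012, limma), and every shCD36 array exceeded every non-targeting array. Chains of type V collagen, which sets fibril diameter, were higher for Col5a2 (2.04 log2, and 0.34 on its other probe set), Col5a1 (1.44 log2) and Col5a3 (1.05 log2). All 3 chains of type VI collagen tested, which forms beaded filaments around cells, were higher, with Col6a3 at 1.76, Col6a1 at 1.00 and Col6a2 at 0.63 log2. Without shCD36 array 2, Col5a3 and Col6a2 lost their calls (adjusted p = 0.0765 and 0.0901, limma), as Col5a3 also did without shCD36 array 3 or non-targeting array 1 and Col6a2 without shCD36 array 1 or non-targeting array 1 or 3. The basement membrane chains Col4a1 and Col4a2 were higher by 1.12 and 1.21 log2. The 7 collagens that did not pass included Col17a1, Col7a1 and Col12a1, and the lowest difference in the list was -0.33 log2.

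Matrix glycoproteins, elastic fibre genes and crosslinking enzymes behaved alike, with 10 of 22 higher and 0 lower (median 0.35 log2; 9 higher and 0 lower without shCD36 array 2). Fn1, which encodes fibronectin, read 9.02, 8.85 and 8.27 log2 in the non-targeting group and 10.15, 11.02 and 10.88 in the shCD36 group, a difference of 1.97 ± 0.22 log2 (adjusted p = 6.93e-05, limma). Bgn, the proteoglycan biglycan, read 9.58, 9.13 and 9.89 against 11.37, 11.83 and 11.44, and was higher by 2.01 ± 0.24 log2. In both genes the arrays of the 2 groups were separated by more than 1 log2. Lox, the enzyme that crosslinks collagen and elastin, was higher by 1.28 log2 (adjusted p = 0.00602, limma), and the related Loxl1 by 0.97 and Loxl2 by 0.56 log2. The other probe set of Loxl1 gave -0.0039 log2. Fstl1, a secreted glycoprotein of mesenchymal cells that was in no list, read 9.45, 8.98 and 9.78 log2 against 12.06, 12.68 and 11.99, and was higher by 2.84 ± 0.23 log2 (adjusted p = 3.1e-06, limma). Thbs4, a thrombospondin of tendon and muscle connective tissue, was higher by 1.95 log2, Prg4, the joint lubricant lubricin, by 1.99 log2, and Sod3, the extracellular superoxide dismutase, by 1.78 log2 (0.46 on its other probe set).

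Fibroblast markers followed the matrix genes, some of which they share: 10 of 17 tested were higher and 0 lower (median 0.51 log2; 8 and 0 without shCD36 array 2). Dpt, the dermatopontin of dermal fibroblasts, read 7.91, 8.08 and 8.31 log2 in the non-targeting group and 10.25, 10.26 and 10.13 in the shCD36 group, 2.11 ± 0.18 log2 higher (adjusted p = 4.08e-06, limma). Mfap5, a microfibril component, was higher by 1.70 log2, Cd34, a surface protein of fibroblasts and endothelium, by 1.33 log2, Lum, the proteoglycan lumican, by 1.25 log2 and Serpinf1, which encodes pigment epithelium-derived factor, by 1.20 log2. Pdgfrb, a receptor of fibroblasts and pericytes, did not pass at 0.19 ± 0.07 log2 (adjusted p = 0.129, limma), and Pdgfra was below the filter. The mesenchymal transcription factors Zeb1, Prrx1 and Twist2 were higher by 1.27, 0.96 and 0.45 log2, and the other 10 of 13 in that list did not pass. The lowest probe sets of Zeb1 and Prrx1 gave 0.15 and 0.07 log2, and the call of Twist2 was lost without any array other than shCD36 array 1 (adjusted p = 0.0581 to 0.109, limma). Vim, the intermediate filament of mesenchymal cells, was higher by 1.51 ± 0.11 log2 (adjusted p = 1.55e-06, limma).

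Matrix-degrading enzymes and their inhibitors were mixed, with 8 of 22 higher and 3 lower (7 and 3 without shCD36 array 2). The tissue inhibitors Timp1, Timp3 and Timp2 were higher by 1.19, 0.87 and 0.85 log2, the metalloproteinases Mmp19 and Adamts4 by 1.15 and 1.06 log2, and Ctsk, the collagen-degrading cathepsin K, by 0.80 log2. The other probe set of Mmp19 gave 0.09 log2. Plau, the urokinase that activates plasminogen, was lower by 0.37 log2 and its receptor Plaur by 0.43 log2. Of 21 genes of TGF-beta signalling and response, Tgfb3, a ligand, was higher (0.51 log2), Id3, a target, was lower (-0.52 log2) and 19 did not pass; the call of Tgfb3 was lost without array 1 or 2 of either group (0.44 to 0.48 log2, adjusted p = 0.0826 to 0.0922, limma). Igf1, the growth factor made by stromal cells, read 8.50, 8.07 and 8.86 log2 against 9.81, 10.02 and 9.84, and was higher by 1.41 ± 0.21 log2 (adjusted p = 0.000682, limma). The 4 probe sets of Igf1 gave 0.01 to 1.41 log2. Its binding proteins Igfbp6 and Igfbp4 were higher by 0.60 and 0.59 log2, and Igfbp3 was lower by 0.31 log2. Igfbp6 lost its call without shCD36 array 2 or 3 or non-targeting array 1 or 2 (adjusted p = 0.0654 to 0.151, limma).

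Vessel genes were also higher. Of 21 endothelial markers, 15 were higher and 0 lower (median 0.67 log2), 6 of them by at least 1 log2, and without shCD36 array 2 there were 11 higher and 0 lower. Cdh5, the cadherin that joins endothelial cells, read 9.43, 9.56 and 9.58 log2 in the non-targeting group and 10.61, 10.70 and 10.63 in the shCD36 group. Its groups lay about 1 log2 apart with little spread within either, and the difference was 1.12 ± 0.08 log2 (adjusted p = 1.15e-06, limma). Robo4, an endothelial guidance receptor, was higher by 1.36 ± 0.11 log2, Pecam1 (CD31) by 1.20 log2, the angiopoietin receptor Tek and its relative Tie1 both by 1.19 log2, and Kdr, the main VEGF receptor, by 0.98 log2. Prox1 and Lyve1, which mark lymphatic vessels, were among the 6 that did not pass. Of 10 pericyte and smooth muscle genes, Myh11, the smooth muscle myosin, was higher by 1.59 log2, Myl9 by 0.99 log2 and Acta2 by 0.68 log2, Notch3 was lower by 0.37 log2 and 6 did not pass. The other probe set of Myh11 gave 0.18 log2, and the call of Notch3 was lost without shCD36 array 1 or 3 or non-targeting array 3. Fabp4, a fatty acid binding protein of adipocytes and capillary endothelium, read 9.08, 9.12 and 9.08 log2 against 10.61, 10.55 and 10.88, and was higher by 1.58 ± 0.12 log2 (adjusted p = 1.77e-06, limma). Its lowest of 3 probe sets gave 0.18 log2. The other 3 adipocyte markers tested did not pass.

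Among inflammatory genes, a few acute phase and innate defence genes rose steeply while most cytokines did not pass. Saa3, an acute phase protein made locally by stromal cells and macrophages, read 10.03, 10.03 and 9.92 log2 in the non-targeting group and 13.95, 13.94 and 12.93 in the shCD36 group. It was 12.2-fold higher (3.61 ± 0.68 log2, adjusted p = 0.0037, limma). Ptx3, a long pentraxin that opsonises microbes and binds matrix, read 8.24, 8.19 and 9.43 against 11.19, 12.71 and 11.82, a difference of 3.28 ± 0.42 log2 (adjusted p = 0.000188, limma). Tnfaip6, which modifies hyaluronan in inflamed matrix, read 8.05, 8.10 and 9.40 against 10.98, 11.99 and 11.24, a difference of 2.88 ± 0.44 log2. In Col3a1, Ptx3 and Tnfaip6 alike the third non-targeting array lay at least 1 log2 above the other 2 of its group and still below each shCD36 array. A second probe set of Ptx3 gave 0.03 log2.

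Of 12 complement and acute phase genes, 5 were higher and 0 lower, with and without shCD36 array 2, with the C1 inhibitor Serping1 at 0.99, factor B (Cfb) at 0.87 and C4b at 0.86 log2 beside Saa3. Lcn2, another acute phase protein, did not pass at 0.03 ± 0.16 log2. Of 32 cytokines and chemokines, 5 were higher and 6 lower (4 and 5 without shCD36 array 2), led among the higher by the stromal chemokine Cxcl12 at 0.77 log2 (0.04 on its lowest probe set). The lower ones included cytokines of the interleukin 1 and interleukin 10 families that epithelium makes: Il33, an alarmin stored in nuclei, read 8.861, 8.452 and 8.916 log2 against 7.003, 7.138 and 7.151 and was lower by 1.65 ± 0.12 log2 (adjusted p = 1.41e-06, limma). Il24 was lower by 1.06 log2, Il1f9 (interleukin 36 gamma) by 1.03 log2 and Il1a by 0.49 log2, a call lost without array 1 or 3 of either group; that of Il24 was lost without shCD36 array 2 or non-targeting array 2 or 3 (adjusted p = 0.0631 to 0.0671, limma). None of 17 macrophage and myeloid genes and none of 7 neutrophil genes passed in limma, with differences between -0.30 and 0.45 log2 and between -0.34 and 0.17 log2; 2 and 0 of them had an unadjusted p under 0.05 in limma.

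**Figure D2:**
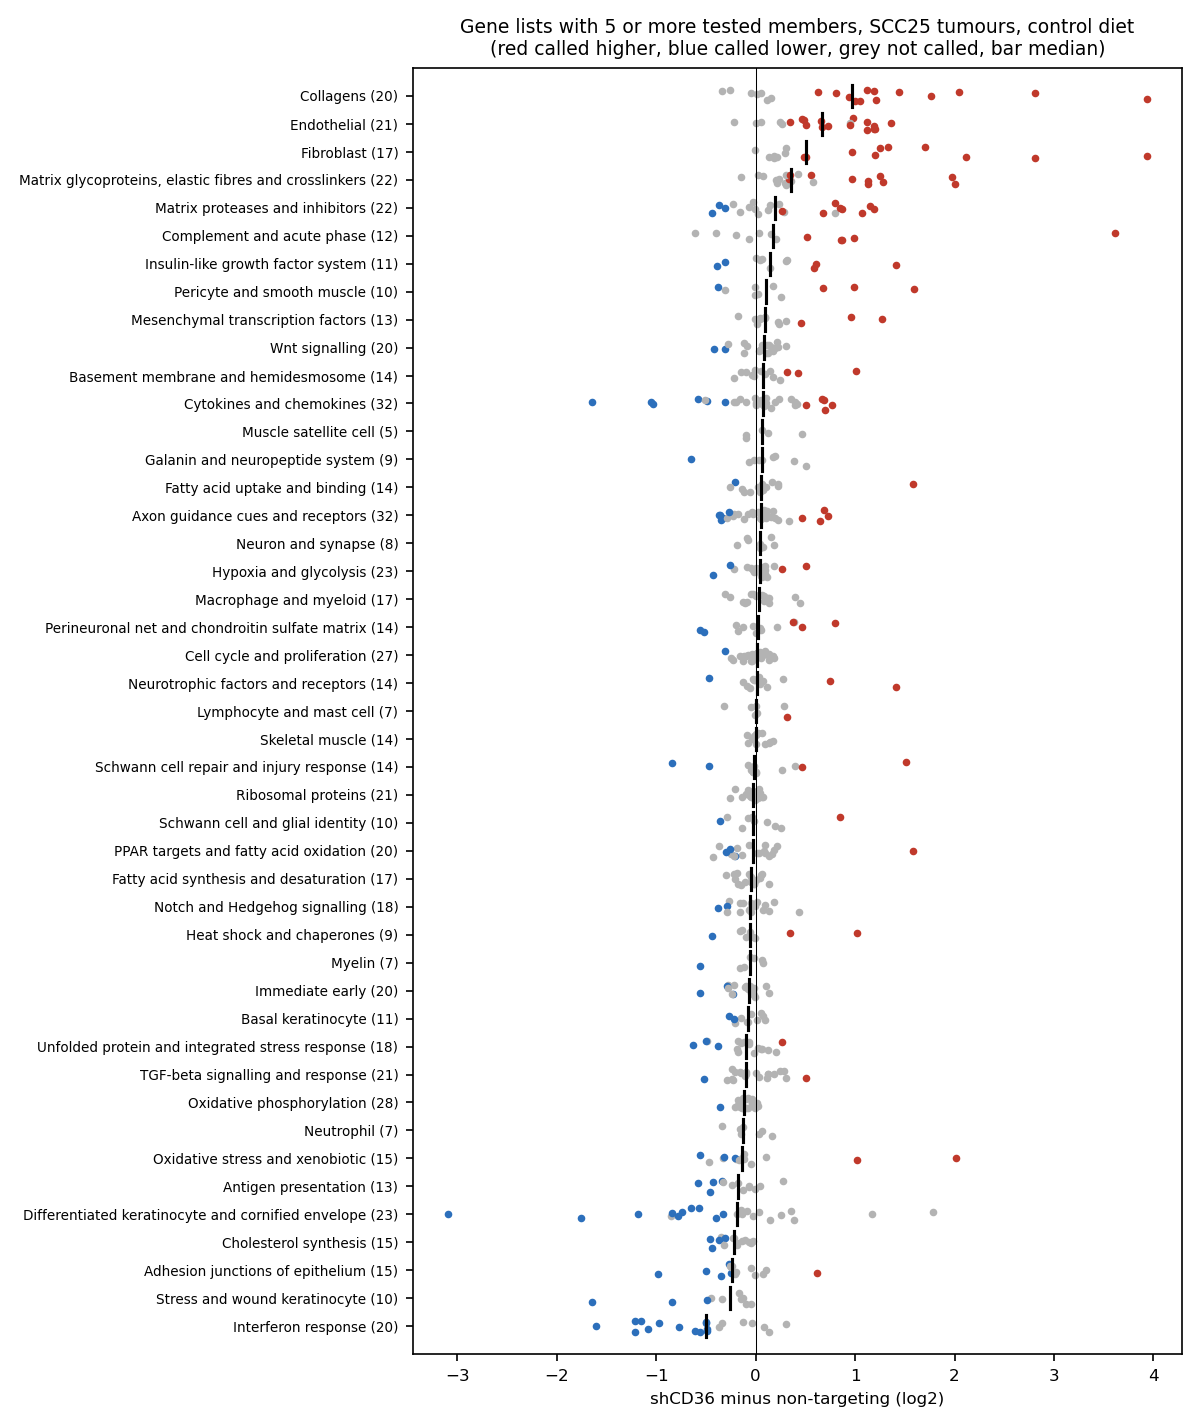
Difference between shCD36 and non-targeting (log2, horizontal axis) of every tested member of each gene list with at least 5 tested members; the number tested stands in brackets and the black bar is the list median. Collagens (median 0.97) and endothelial genes (0.67) lie at the top and the interferon response (-0.50) at the bottom, with the other medians between them.

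Interferon-induced genes were lower with shCD36. Of 20 tested, 13 were lower and 0 higher (median -0.50 log2), 5 of them by at least 1 log2, and the same counts of 13 and 0 were found without shCD36 array 2. Ifit1, which binds viral RNA caps, read 11.63, 11.59 and 11.72 log2 in the non-targeting group and 10.03, 10.18 and 9.93 in the shCD36 group. The groups were separated by over 1 log2, and the gene was lower by 1.60 ± 0.09 log2 (3.03-fold, adjusted p = 5.63e-07, limma). Oasl2, of the oligoadenylate synthetase family, read 10.76, 10.62 and 10.82 against 9.51, 9.45 and 9.61 and was lower by 1.22 ± 0.08 log2. Usp18, the protease that removes Isg15 and restrains the receptor, was lower by 1.21 log2, Ifih1, the RNA sensor MDA5, by 1.08 log2, and Rtp4 by 0.97 log2.

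Part of the machinery that drives these genes was lower too, with Stat2 at -0.49 and Irf9 at -0.49 log2, while the regulator Irf7 did not pass at -0.34 ± 0.12 log2 (adjusted p = 0.1, limma). Xaf1 was lower by 1.15 log2 on the probe set that stands for the gene, and its other probe set gave 0.14 log2. Outside the list, the interferon-induced GTPase Irgm1 was lower by 1.16 log2 and Oas3 by 1.15 log2. Slfn2, a schlafen gene of immune cells, read 9.85, 9.69 and 9.71 log2 against 7.94, 8.24 and 8.35 and was lower by 1.58 ± 0.10 log2 (adjusted p = 5.69e-07, limma). Of 13 antigen presentation genes, 4 were lower and 0 higher: Nlrc5, the activator of class I genes, at -0.58, H2-T23 at -0.46, the immunoproteasome subunit Psmb8 at -0.43 and H2-Q4 at -0.34 log2. Other probe sets gave 0.05 log2 for H2-T23 and -0.07 for Psmb8, and the call of H2-Q4 was lost without array 1 of either group. Probe sets of the Ifit, Oas, Gbp and H2 families can bind transcripts of their near relatives, so single members are uncertain.

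The promoters of the interferon-induced genes are shown because the response element is known by its letters. The element was searched as GAAA followed, after any 2 bases, by GAAA, or as TTTC, any 2 bases and TTTC when read from the other strand, in the 250 bases before the start of each gene (RefSeq promoters, GRCm38.p6). It was present in 2.98% of 32851 promoters and in 2.93% of the 10269 tested genes with a promoter. Among the genes lower with shCD36 it was present in 33 of 560 (5.89%), and among the higher genes in 15 of 351 (4.27%). In the interferon list it was present in 3 of 8 lower members and in 3 of 6 members that did not pass. The windows below hold 60 bases on the strand of the gene, with the match nearest to the start in capitals. They belong first to 5 genes that were lower in all 3 comparisons described further on, and then to 3 list members with the same letters whose differences did not pass here.
Ifit1, chr19:34640779-34640838, plus strand: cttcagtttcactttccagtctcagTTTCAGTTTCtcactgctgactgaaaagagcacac
Stat2, chr10:128270251-128270310, plus strand: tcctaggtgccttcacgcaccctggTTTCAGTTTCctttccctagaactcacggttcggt
Gbp7, chr3:142530258-142530317, plus strand: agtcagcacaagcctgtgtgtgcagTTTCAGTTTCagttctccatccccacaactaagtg
Gbp3, chr3:142559980-142560039, plus strand: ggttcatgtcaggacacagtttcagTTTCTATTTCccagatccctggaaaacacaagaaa
Apol9a, chr15:77411099-77411158, minus strand: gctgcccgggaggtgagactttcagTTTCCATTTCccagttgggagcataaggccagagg
Gbp2, chr3:142620579-142620638, plus strand: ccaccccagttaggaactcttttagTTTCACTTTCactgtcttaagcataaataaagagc
Ifit3, chr19:34583382-34583441, plus strand: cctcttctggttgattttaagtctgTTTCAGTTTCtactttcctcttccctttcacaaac
Rsad2, chr12:26456538-26456597, minus strand: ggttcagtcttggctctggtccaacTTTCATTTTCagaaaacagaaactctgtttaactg
The Ifit1, Gbp3, Apol9a and Ifit3 promoters each hold 2 such matches and the others 1. The match of Ifit1 begins 85 bases before the start and that of Stat2 222 bases before it. A match is a description of the sequence and was not tested for binding.

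**Figure D3:**
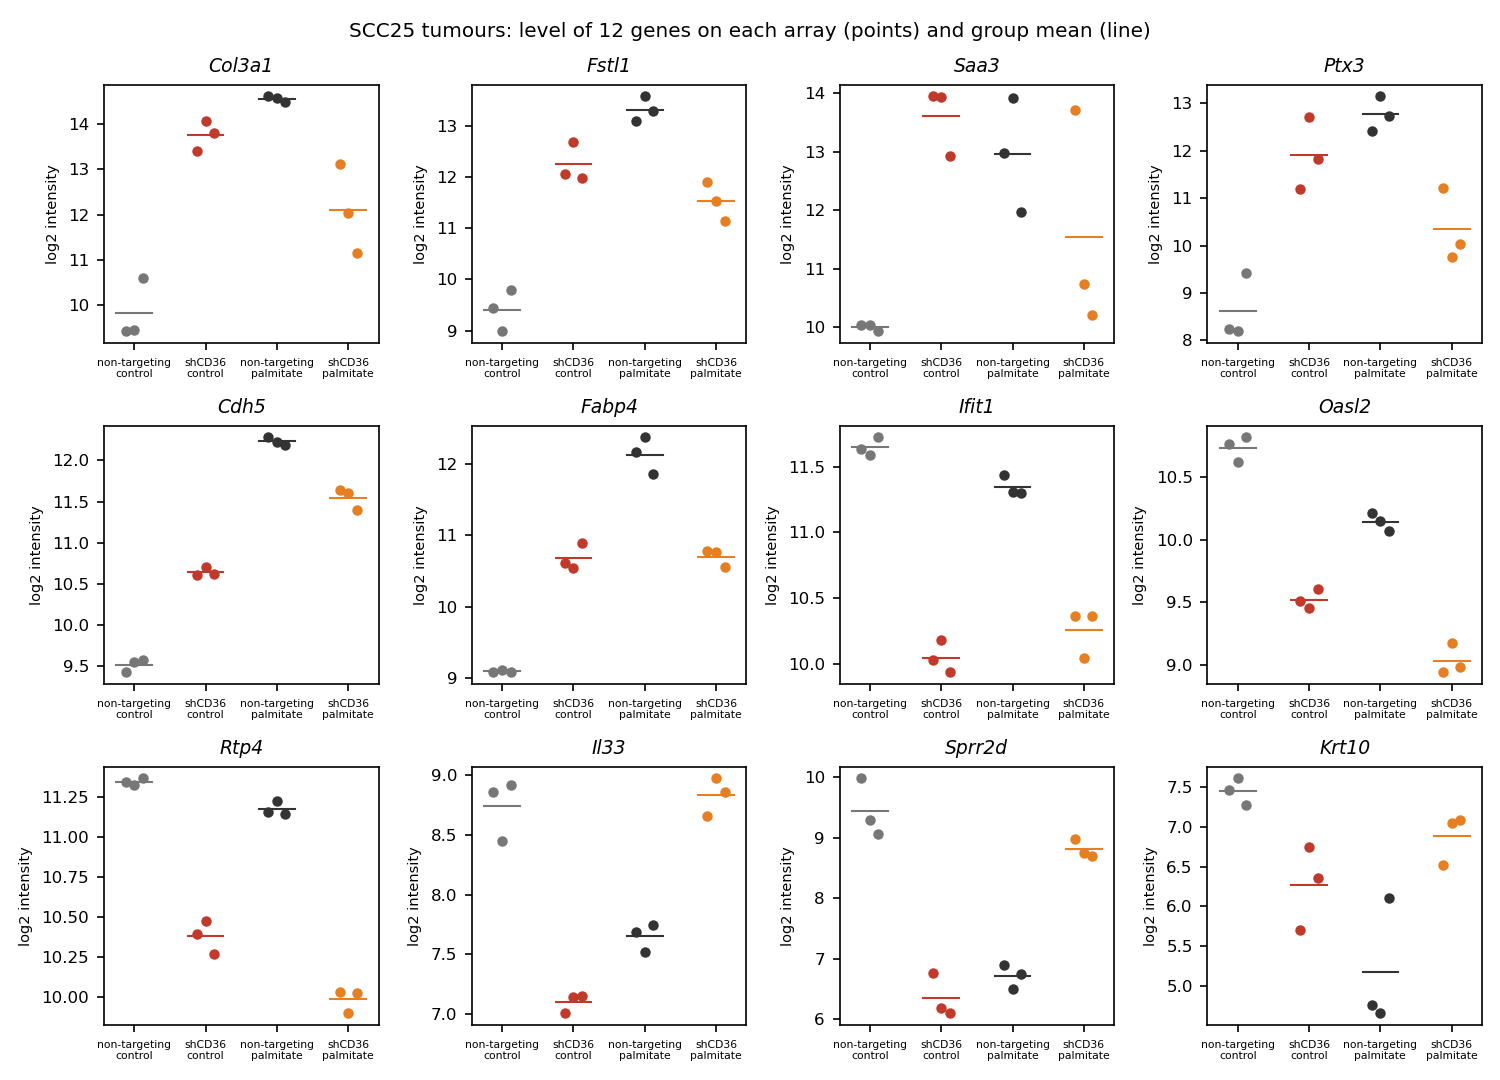
Level of 12 genes (log2 intensity, vertical axis) on each array (points) of the 4 SCC25 groups with the group mean (line). On the control diet the shCD36 arrays lie above the non-targeting arrays for Col3a1, Fstl1, Saa3, Ptx3, Cdh5 and Fabp4 and below them for Ifit1, Oasl2, Rtp4, Il33, Sprr2d and Krt10; on the palmitate diet the order is turned in the means of all of these except Ifit1, Oasl2 and Rtp4.

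Genes of maturing epithelium were lower in part. Of 23 markers of differentiated keratinocytes and the cornified envelope, 10 were lower and 0 higher (median -0.18 log2). Without shCD36 array 2 the counts were 10 and 0 again, and the median was -0.34 log2. Of the 23 differences, 16 were below 0 and 7 above it, the highest at 1.79 log2. Sprr2d, a small proline-rich envelope protein, read 9.98, 9.29 and 9.06 log2 in the non-targeting group and 6.77, 6.18 and 6.10 in the shCD36 group. It was the lowest gene of the comparison at -3.09 ± 0.21 log2 (8.53-fold lower, adjusted p = 9.79e-07, limma). Sprr2a1 was lower by 1.75 ± 0.20 log2, Sprr1a by 0.84 log2 and Sprr1b by 0.78 log2; the Sprr2 genes are near-identical copies, and their probe sets may share signal.

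Krt10, the keratin of suprabasal cells, read 7.46, 7.61 and 7.28 log2 against 5.70, 6.75 and 6.35, lower by 1.18 ± 0.32 log2 (adjusted p = 0.0327, limma). Its call was lost, with adjusted p between 0.059 and 0.141 in limma, when any array other than shCD36 array 2 was left out, and with a robust variance trend (adjusted p = 0.121, limma). Abca12, which loads lipids into lamellar granules of the epidermis, was lower by 1.31 ± 0.14 log2 (adjusted p = 3.94e-05, limma). Plet1, a surface protein of epithelial progenitors, read 9.70, 9.79 and 9.92 log2 against 8.15, 8.26 and 8.22, lower by 1.59 ± 0.10 log2 (-0.28 on its weakest probe set). Phlda1, a pleckstrin homology domain protein of epithelial and other cells, was lower by 1.49 ± 0.08 log2 and Irx3, a homeobox factor, by 1.24 ± 0.11 log2. Of 10 stress and wound keratinocyte genes, 3 were lower, including Krt6b at -0.84 log2, and all 10 differences were below 0.

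Junction genes of epithelium were lower in 5 of 15 cases and higher in 1 (4 and 0 without shCD36 array 2). Cldn1 and Cldn4, which seal tight junctions, were lower by 0.99 and 0.50 log2, Dsc2, a desmosomal cadherin, by 0.35 log2, Jup by 0.27 log2 and Cdh1, E-cadherin, by 0.24 log2, while Cldn7 was higher by 0.61 log2. The call of Cldn7 was lost without array 2 of either group, and that of Dsc2 without shCD36 array 3 or non-targeting array 1 or 2. Jup lost its call without array 1 or 3 of either group, and Cdh1 without any 1 of the 6 arrays (adjusted p = 0.0605 to 0.167, limma). Keratins of basal cells did not pass: Krt5 differed by 0.07 ± 0.07 log2 and Krt14 by 0.01 ± 0.07 log2, and of 11 basal keratinocyte genes 2 were lower (Egfr at -0.26 and Sfn at -0.21 log2) and 0 higher, and neither of these passed when any 1 of the 6 arrays was left out (adjusted p = 0.0643 to 0.107 for Egfr and 0.0663 to 0.154 for Sfn, limma).

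The array that stood apart did so in this same tissue programme. Lce1f, a late cornified envelope gene, read 5.61, 5.43 and 5.21 log2 on the non-targeting arrays, 5.23 and 5.28 on shCD36 arrays 1 and 3, and 11.26 on shCD36 array 2. Lce1a2 read 10.76 there against 5.28 and 5.40. Of 10 Lce genes tested, 7 were at least 2 log2 above both other arrays of the group on array 2, as were Rptn, Lor, Cdsn and Fmo2, and 0 of these 11 genes passed the test in limma (3 had an unadjusted p under 0.05). The 10 lower keratinocyte genes above do not include any of them. On shCD36 arrays 1 and 3 as well, Rptn (7.05 and 6.35 log2), Cdsn (6.25 and 6.22) and Lce1d (5.40 and 5.29) exceeded every non-targeting array. Their highest non-targeting values were 6.15, 6.15 and 5.23 log2. The other genes of the 11 did not exceed the non-targeting group on both of these arrays. Lce1 transcripts also varied within groups of the VDH15 arrays, where Lce1f read 7.74, 3.29 and 3.48 log2 in the non-targeting group and 3.78, 8.69 and 8.11 in the shCD36 group.

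**Figure D4:**
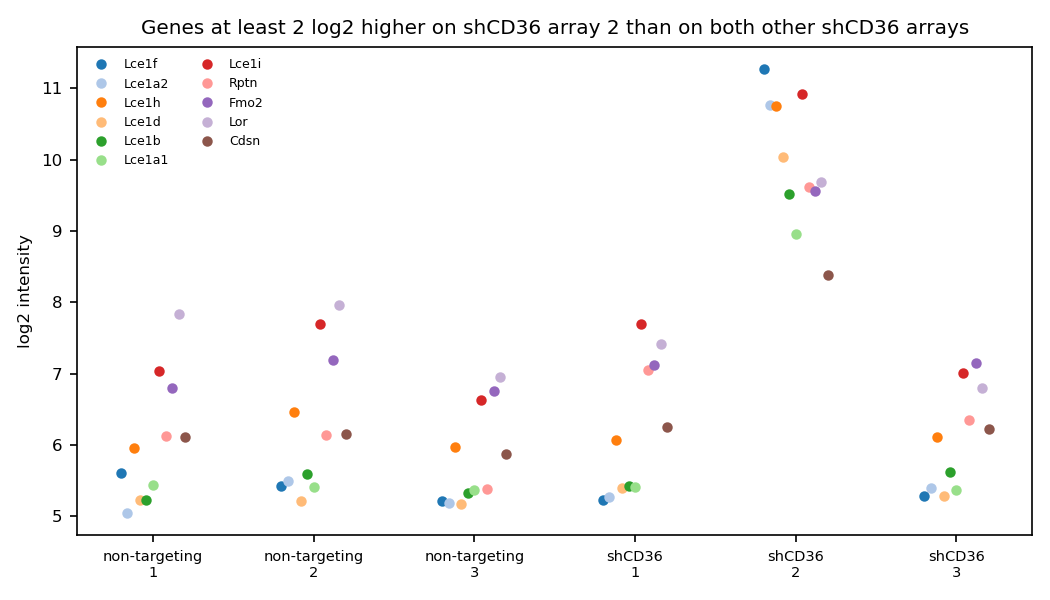
Level (log2 intensity, vertical axis) on each of the 6 arrays of the 11 genes at least 2 log2 higher on shCD36 array 2 than on both other shCD36 arrays. Lce1f reaches 11.26 on that array and stays between 5.21 and 5.61 on the other 5.

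The fraction is labelled after nervous tissue, and its marker lists are read here against the 9.49% of all genes that passed. Of 10 Schwann cell and glial identity genes, Scn7a, a sodium channel of non-myelinating Schwann cells and fibroblasts, was higher by 0.85 ± 0.18 log2 (adjusted p = 0.00699, limma), Sox2 was lower by 0.36 log2, and 8 did not pass. The call of Sox2 was lost without any array other than shCD36 array 2 (adjusted p = 0.0677 to 0.182, limma). For Scn7a the mean of its probe sets gave 0.29 log2 (adjusted p = 0.058, limma). Ngfr, the neurotrophin receptor of immature and repair Schwann cells, differed by -0.02 ± 0.12 log2. Of 7 myelin genes, Egr2, the factor that drives myelination and is also an immediate early gene, was lower by 0.56 log2 and 6 did not pass. None of the 8 neuron and synapse genes passed in limma, with differences between -0.19 and 0.18 log2, and 0 had an unadjusted p under 0.05.

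Galanin (Gal), a neuropeptide, read 6.23, 5.99 and 6.33 log2 in the non-targeting group and 6.32, 6.18 and 6.25 in the shCD36 group, and the groups overlapped (0.07 ± 0.13 log2). Its receptors Galr1 and Galr3 differed by 0.03 ± 0.08 and -0.07 ± 0.08 log2, and Galr2 was below the filter. Calcb, which encodes a calcitonin gene-related peptide, was lower by 0.65 log2 (adjusted p = 0.0164, limma), and lost its call without non-targeting array 3 or shCD36 array 3. Among 14 neurotrophic factors and receptors, Gfra2, the neurturin receptor, was higher by 0.75 log2 and Artn, the ligand artemin, lower by 0.46 log2, beside Igf1. Of 32 axon guidance genes, 4 were higher, with the cue Ntn1 at 0.73, Sema4c at 0.68, the receptor Nrp1 at 0.65 and Plxnd1 at 0.46 log2, and 5 were lower, with Sema5a, Sema4d and Efnb2 between -0.36 and -0.35 log2; without shCD36 array 2 these counts were 2 and 5, with Nrp1 and Plxnd1 lost (adjusted p = 0.0856 and 0.0619, limma). Each of these was also lost without 3 other arrays in turn, and Sema4d and Efnb2 without any array other than shCD36 array 2. The lowest probe set of Ntn1 gave 0.15 log2 and the weakest of Sema5a -0.09. Of 14 genes of the perineuronal net and chondroitin sulfate matrix, Vcan (versican), Tnc (tenascin C) and Has1 were higher by 0.80, 0.47 and 0.38 log2, and Has2 and Ptprz1 lower by 0.56 and 0.52 log2; without shCD36 array 2 there were 1 higher and 2 lower, with Vcan and Has1 lost (adjusted p = 0.147 and 0.0877, limma). Vcan was also lost without each non-targeting array, Has1 without shCD36 arrays 1 and 3 and non-targeting array 1, and Has2 without shCD36 array 1.

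Mouse Cd36 itself did not pass. It read 5.29, 4.99 and 5.06 log2 in the non-targeting group and 5.27, 5.10 and 5.04 in the shCD36 group, near the low end of the values, a difference of 0.02 ± 0.10 log2. The hairpin was carried by human cells, so this value is no check of the knockdown. Of 14 genes of fatty acid uptake and binding, Fabp4 was higher and Fabp5, the epidermal family member, was lower by 0.21 log2, and 12 did not pass. The call of Fabp5 was lost when any 1 of the 6 arrays was left out (adjusted p = 0.0697 to 0.115, limma). Cholesterol synthesis genes were lower in 4 of 15 cases (Sqle, Nsdhl, Fdps and Fdft1, between -0.46 and -0.31 log2) and below 0 in all 15, as were 54.8% of all genes, with 45.2% above 0. Of these, Nsdhl lost its call without shCD36 array 2 or 3 or non-targeting array 1 or 3 (adjusted p = 0.0687 to 0.119, limma), and Fdft1 without array 1 or 3 of either group (adjusted p = 0.0576 to 0.0707, limma). None of 17 fatty acid synthesis and desaturation genes passed in limma, with differences between -0.29 and 0.13 log2 (2 had an unadjusted p under 0.05). Of 28 oxidative phosphorylation genes, Ndufa4 was lower (-0.36 log2), and 25 of the 28 differences were below 0 with a median of -0.12 log2. The call of Ndufa4 was lost without any array other than non-targeting array 2 (adjusted p = 0.0662 to 0.149, limma). In the cell cycle list Mcm2 was the 1 called gene of 27, at -0.31 log2, and lost its call when any 1 of the 6 arrays was left out (adjusted p = 0.0505 to 0.192, limma). None of 21 ribosomal protein genes passed in limma (1 had an unadjusted p under 0.05). Hmox1, the heme-degrading stress enzyme, was higher by 1.02 ± 0.10 log2 (adjusted p = 3.26e-05, limma), and Cyp1b1, a cytochrome P450 induced through the aryl hydrocarbon receptor, by 2.01 ± 0.32 log2. The 3 probe sets of Cyp1b1 gave 0.08 to 2.01 log2.

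The difference between the shRNAs was compared between diets within SCC25 by the interaction term of the limma fit, which passed for 1992 genes (15.5%). On the palmitate diet, 895 genes were higher (6.98%) and 964 lower (7.52%) with shCD36. Of the 493 genes higher on the control diet, 404 (81.9%) had the opposite sign on the palmitate diet and 387 differed between diets; of the 724 lower genes these were 468 (64.6%) and 457, and of all genes 54.8% had opposite signs. Of the 78 genes higher by at least 1 log2, 75 had the opposite sign, 66 of them as calls of their own, and 77 differed between diets. These sets were chosen by the control diet difference, which is also part of the interaction term, so the choice favours the counts that differed. Col3a1 read 14.62, 14.58 and 14.50 log2 in the non-targeting palmitate group and 13.13, 12.03 and 11.16 in the shCD36 palmitate group. The shCD36 difference thus went from 3.94 to -2.46 log2 (adjusted p of the change = 1.3e-06, limma), and the non-targeting control diet group was the lowest of the 4. Dpt went from 2.11 to -3.08 log2 and Fstl1 from 2.84 to -1.79 log2.

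By list, collagens were lower in 15 of 20 cases on the palmitate diet (median -1.06 log2) and 14 differed between diets. Fibroblast genes were lower in 14 of 17 (median -1.47 log2; 15 differed), and endothelial genes in 17 of 21 (median -0.68 log2; 17 differed). Differentiated keratinocyte genes were higher in 16 of 23 (median 1.60 log2; 16 differed), with Sprr2d going from -3.09 to 2.09 and Krt10 from -1.18 to 1.71 log2. Cholesterol synthesis genes were higher in 6 of 15 there, and 8 differed between diets. Interferon-induced genes were lower on both diets, with 17 of 20 called on the palmitate diet (median -0.73 log2), and 5 of the 20 differed between diets. Ifit1 was lower by 1.60 log2 on the control diet and by 1.09 log2 on the palmitate diet, where it read 11.44, 11.31 and 11.30 against 10.36, 10.04 and 10.36 log2.

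**Figure D5:**
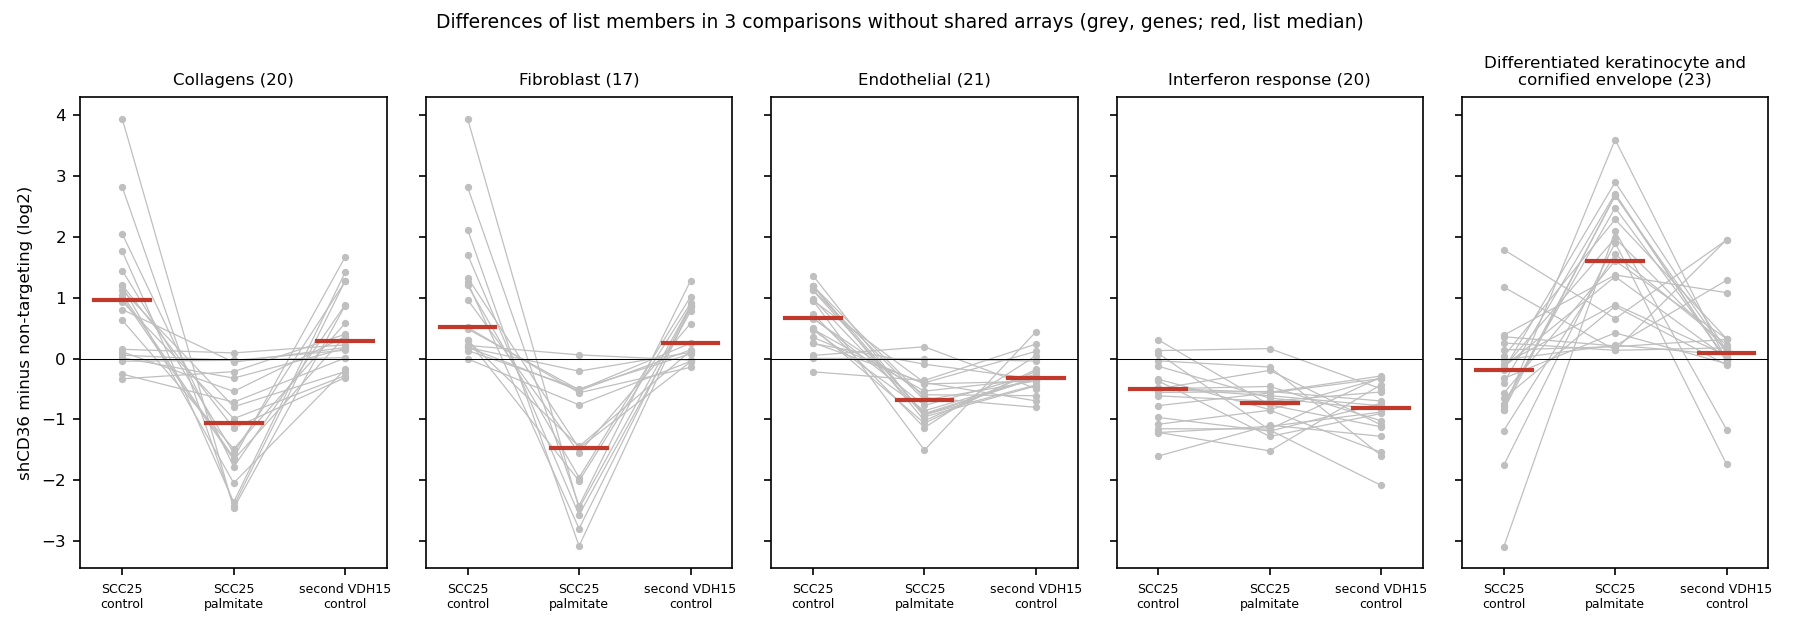
Difference between shCD36 and non-targeting (log2, vertical axis) of the tested members of 5 lists (grey points joined by gene) in the SCC25 control diet, SCC25 palmitate diet and second VDH15 control diet comparisons; red bars are list medians. Medians of collagens, fibroblast and endothelial genes are above 0 on the SCC25 control diet and below 0 on the palmitate diet, and the interferon medians are -0.50, -0.73 and -0.81.

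In the second VDH15 experiment on the control diet, 16 genes were higher (0.125%) and 69 lower (0.538%) with shCD36, 0.663% together, and the difference of the shCD36 effect between SCC25 and VDH15 passed for 482 genes (3.76%). Of the 493 genes higher in SCC25, 245 (49.7%) had the same sign in VDH15 and 141 differed, and of the 724 lower genes these were 384 (53%) and 166. Over all genes tested, 47.5% had the same sign in both experiments. The choice of genes by the SCC25 difference again favours the counts that differed. Collagens had a median of 0.29 log2 in VDH15, with 3 of 20 higher, and 3 of the 20 differed between the experiments, Col3a1 among them (0.87 log2 in VDH15; adjusted p of the difference = 0.0038, limma). Col1a1 was higher by 1.28 log2 there. Endothelial genes had a median of -0.33 log2, none of 21 passed in VDH15 in limma (9 had an unadjusted p under 0.05), and 11 differed from SCC25. Cdh5 was at -0.37 log2 and Robo4 at -0.45 log2 there. Interferon-induced genes were lower in 11 of 20 cases (median -0.81 log2), and 5 of the 20 differed from SCC25. Differentiated keratinocyte genes had a median of 0.09 log2 in VDH15, with 1 of 23 lower, 0 higher and 15 above 0, and 1 differed from SCC25. Among single epithelial genes, Il33 was lower by 1.84 log2 and Sprr2a1 by 1.74 log2 in VDH15, against 1.65 and 1.75 log2 in SCC25. Phlda1, Irx3 and Plet1, at 0.34, -0.11 and 0.02 log2 in VDH15, differed from SCC25.

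Called in the same direction in the SCC25 control diet, SCC25 palmitate diet and VDH15 control diet comparisons were 14 genes, of which 14 were lower and 0 higher. They were Ifit1, Oasl2, Ifih1, Gm9706, Rtp4, Apol9a, Samd9l, Parp14, Gbp7, Herc6, Gbp3, Stat2, Sgms2 and Isg20. Of these, 6 are members of the interferon response list and 8 are not, among them Sgms2, a sphingomyelin synthase, and the predicted gene Gm9706. The list does not hold every interferon-induced gene, as Irgm1 and Oas3 above are also outside it. The 8 are therefore not shown to be unrelated to interferon. In the SCC25 control diet comparison Gbp3 lost its call without shCD36 array 1 or 3 or non-targeting array 3 (adjusted p = 0.0975 to 0.123, limma). Ifih1 was lower by 1.08, 0.85 and 1.54 log2 in the 3 comparisons, Oasl2 by 1.22, 1.11 and 0.88 log2, and Stat2 by 0.49, 0.61 and 0.78 log2. The difference of Ifih1, Oasl2 and Stat2 between diets did not pass (adjusted p = 0.19, 0.64 and 0.61, limma), and neither did that between SCC25 and VDH15 (adjusted p = 0.2, 0.26 and 0.31, limma). Of the 11 genes of these 14 with a promoter, 5 hold the searched letters, shown above.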

How the data were processed

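Values were the authors' deposited table of log2 intensities from 36 mouse Affymetrix arrays, for which the submitters' processing notes name RMA and affy. Coefficients of the labelled batches were below 1e-06 in 100% of 45141 probe sets once diet and shRNA were fitted, so the values had been adjusted for batch by a step not given in the sources used here; the 12 SCC25 arrays share 1 batch. Array medians lay between 6 and 6.04 log2. Each side is 1 biological replicate, which limits what the comparison says about tumours, and the 3 arrays a side limit its precision for these samples. The annotation gave 1 gene for 28898 probe sets (551 with several and 15692 without were left out), and 28689 matched RefSeq. Each of 17097 genes took its probe set with the highest mean; the lowest 25% (mean under 5.19 log2) were left out. The 12 SCC25 arrays were fitted with limma 3.58.1 (R 4.3.3; 8 residual and 6.19 prior degrees of freedom), and 24 arrays with VDH15; the fit was tested on simulated data; a call is a Benjamini-Hochberg adjusted p under 0.05 over 12823 genes. Errors are limma standard errors of a difference of 3 arrays a side. Their spread is estimated over all 12 SCC25 arrays and moderated across genes, so they do not describe the 6 arrays alone. Named were the 15 highest and 15 lowest called genes without overlap, up to 4 members of each list by p, and Cd36 and galanin genes; other list members were named after their values were seen. Members and the 50 lists, written from general knowledge, were chosen with earlier results of these data known. Filters, probe set choice, scaling, variance models, single arrays left out and, after seeing the data, list counts without shCD36 array 2 were tried as alternatives.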

Additional observations from a re-analysis of the deposited data

Results flagged for a closer look

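Of the 30 genes with the highest and lowest differences, 26 had an shCD36 effect that differed between diets in SCC25 by the limma interaction term (adjusted p under 0.05). Over all genes tested this was 15.5%. The 30 genes were chosen by their control diet difference, which is also part of the interaction term, so the choice itself favours a pass. The control diet effect minus the palmitate diet effect was 6.39 log2 for Col3a1, 6.15 for Tnfaip6, 5.71 for Ptx3, 5.23 for Col1a1, 5.19 for Dpt, 5.15 for Thbs4 and 5.02 for Saa3. It was 4.7 log2 for Prg4, 4.63 for Fstl1, 4.35 for Bgn, 4.2 for Cyp1b1, 4.19 for Sod3, 4.12 for Col6a3, 3.82 for Col5a2 and 2.71 for Fn1. Among the lower genes it was -5.19 log2 for Sprr2d, -3.66 for Sprr2a1, -2.97 for Abca12, -2.89 for Krt10, -2.83 for Il33, -2.19 for Plet1, -1.79 for Phlda1, -1.7 for Slfn2 and -1.26 for Irx3. The interferon-induced genes Oas3 and Ifit1 had smaller values, -0.554 and -0.507 log2, and were lower with shCD36 on both diets.

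The shCD36 effect of 9 of the 30 genes differed between SCC25 and the second VDH15 experiment on the control diet, where cell line and batch cannot be told apart. Over all genes tested this was 3.76%, and the choice of the 30 genes by their SCC25 difference favours a pass here too. SCC25 minus VDH15 was 3.07 log2 for Col3a1 and 2.39 for both Fstl1 and Fn1. It was -1.93 log2 for Sprr2d, -1.83 for Phlda1, -1.61 for Plet1, -1.13 for Irx3, -0.907 for Slfn2 and -0.851 for Xaf1.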

How the results depend on the processing

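Each side was 1 labelled biological replicate, so the array tests cannot be read as tests against the spread between tumours. With the spread taken between experiments, 0 genes were called in total, higher, lower and at least 1 log2 apart (smallest unadjusted p 1e-04, limma). That spread held palmitate diet differences and no control diet shCD36 difference. None of the 30 named genes passed, and that setting keeps the same differences by construction, so their direction could not change. Leaving out 1 array gave 770 to 1048 calls in place of 1217, 339 to 430 higher, 429 to 618 lower and 97 to 119 of at least 1 log2. The lower calls fell most without shCD36 array 1 (429) or 3 (440) and non-targeting array 1 (431) or 3 (474). The interaction with VDH15 gave 271 to 445 calls in place of 482, with 271 and 287 without non-targeting arrays 3 and 1, 290 and 299 without shCD36 arrays 3 and 1, and 305 and 307 without VDH15 shCD36 array 2 and VDH15 non-targeting array 3; the interaction with diet gave 1632 to 2083 in place of 1992. The other 11 settings gave 1159 to 1616 calls. Same-numbered arrays deviated together with correlations of 0.0986, 0.0943 and 0.114, and each of 3 correlated best with its own number, a hint from the data and not the design; with the number as a replicate block there were 1160 calls (484 higher, 676 lower, 104 of at least 1 log2), 426 for the interaction with VDH15 and 1909 for that with diet. The haemoglobin gene Hba-a1, 0.12 log2 in the main setting, was -0.41 log2 (adjusted p = 0.00122, limma) after quantile normalisation; the cause was not tested.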

Other observations

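Lists of red blood cell, skeletal muscle, stress response and immediate early genes follow, of which only levels or single genes were given above. Of 4 red blood cell genes tested, Alas2, the first enzyme of heme synthesis in red cells, was higher by 0.82 log2 with shCD36 and 3 did not pass; on the palmitate diet it was lower by 3.27 log2. None of 14 skeletal muscle genes passed in limma, with differences between -0.09 and 0.17 log2 and 0 unadjusted p under 0.05. Of 18 genes of the unfolded protein and integrated stress response, Asns, which makes asparagine, was lower by 0.63 log2, Trib3 by 0.50 log2 and Xbp1 by 0.38 log2, and Ddit3 was higher by 0.26 log2. Of 20 immediate early genes, Egr2, Myc and Fosl1 were lower, by 0.56, 0.29 and 0.23 log2, and 0 were higher. The call of Fosl1 was lost when any 1 of the 6 arrays was left out, and those of Ddit3 and Trib3 without 4 of the 6 in turn.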
